A study of Homo sapiens with 6 samples.

Results

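Long non-coding RNAs of the MYC region at 8q24 were described in U-2OS cells, a human osteosarcoma line, in 6 libraries that were all made after treatment with actinomycin D, which blocks transcription. The genes were chosen by name and position: PVT1, CASC8, CASC11, CASC19, CASC21, PCAT1 and CCAT1. Of these 7, 5 had a row among the 35036 non-coding genes of the deposited count table, and CASC21 and CCAT1 were not analysed here. SiSFPQ cells (3 libraries) were transfected with an siRNA against SFPQ, an RNA-binding protein of the nucleus, and SiCtrl cells (3 libraries) with a control siRNA. No dose or duration of actinomycin D is given in the sources used here. The labels do not say whether the libraries came from separate cultures, so p-values measure only the spread between these libraries, which may be technical. Every library, control included, carries the drug treatment.

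MYC encodes a transcription factor that drives growth and is often overexpressed in cancer. It lies in a region with few other coding genes, where many enhancers and long non-coding RNAs have been mapped, several of them through cancer risk studies. PVT1 is the best known of these RNAs: it starts downstream of MYC on the same strand, its promoter competes with that of MYC for enhancers, its RNA has been reported to stabilise the MYC protein, and its locus hosts a group of microRNAs. CASC11 starts just upstream of MYC and runs away from it on the other strand. PCAT1, CASC19 and CASC8 lie farther upstream, toward the centromere.

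Counts over the table summed to between 1298658 and 1599566 per library for SiSFPQ and between 1385532 and 1533974 for SiCtrl. These totals cover the table's non-coding genes and are not the depth of sequencing. Values are given as CPM (counts scaled to the table's total) after TMM scaling, and differences as log2 fold changes of SiSFPQ over SiCtrl from edgeR's quasi-likelihood test, called at a Benjamini-Hochberg adjusted p under 0.05 over the 6325 rows tested. SFPQ and MYC themselves, and the 11 coding markers of osteoblast, immune and epithelial cells that were looked up, were not analysed here, so neither the knockdown nor the cell type was checked. In bulk RNA, a change in the number of cells that express a gene cannot be told from a change in RNA per cell.

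The 8q24 RNAs did not move one way. PVT1, CASC8 and CASC11 were higher in SiSFPQ cells, by 1.19-fold to 1.44-fold, while PCAT1 was lower, by 2.32-fold. CASC19 was near the limit of detection and was not tested. Of the 4 members tested, 3 were thus called higher, where 24.5% of all tested rows (1547 of 6325) were, and 1 was called lower, as were 1516 of all tested rows. A stricter, unplanned rule, not used for the share called higher, also asked for groups that did not overlap, as those of PCAT1 did not. By that rule 22.1% of all tested rows were called lower. In either direction all 4 were called, where 48.4% of all tested rows were. The members were chosen with earlier results of these data known, so these shares are a description only. The 4 members had a median log2 fold change of 0.29, against 0.01 over all tested rows.

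PVT1 (ENSG00000249859, chromosome 8, 127794513 to 128187101, plus strand) held most of the counts of these RNAs. It had 2736, 3464 and 3443 counts in the SiSFPQ libraries and 2530, 2595 and 2524 counts in the SiCtrl libraries. After scaling these were 2089, 2158 and 2226 CPM in SiSFPQ and 1805, 1763 and 1888 CPM in SiCtrl. Every SiSFPQ library was above every SiCtrl library, with means of 2158 ± 68.3 and 1819 ± 63.7 CPM (SD, n = 3 each). The rise was small and precisely measured, with a log2 fold change of 0.25 ± 0.05 (SE, 95% interval 0.16 to 0.34, edgeR adjusted p = 6.2e-07). PVT1 ranked 68 by mean CPM among the 6325 rows tested, whose median was 28.6 CPM. Its fold change was less extreme than its abundance, with 66.7% of tested rows at a lower log2 fold change.

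CASC8 (ENSG00000246228, 127289667 to 127482139, minus strand), an RNA from the colorectal and prostate cancer risk region, spans the coding gene POU5F1B, a retrogene related to the pluripotency factor OCT4. It had 192, 246 and 226 counts in SiSFPQ and 135, 199 and 164 counts in SiCtrl. Scaled levels were 146.6, 153.2 and 146.1 CPM in SiSFPQ against 96.3, 135.2 and 122.7 CPM in SiCtrl. The groups did not overlap, but the SiCtrl libraries were spread more widely (SD 19.8 CPM) than the SiSFPQ libraries (SD 3.98 CPM), and SiCtrl replicate 1 was the lowest of them. The log2 fold change was 0.33 ± 0.10 (SE, edgeR adjusted p = 0.0018). The call rested on that library: without SiCtrl replicate 1 the log2 fold change was 0.20 (edgeR adjusted p = 0.12). DESeq2 gave 0.33 with an adjusted p = 0.087, and adjusted p over all alternatives ran from 1.5e-04 to 0.12. The exons of CASC8 in GENCODE release 29 (2342 bases) shared no bases with those of POU5F1B or PCAT1. The listed length was 3684 bases, and the table's exons were not given. Reads of POU5F1B or PCAT1 in this row thus cannot be told apart.

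CASC11 (ENSG00000249375, 127686343 to 127739020, minus strand), the neighbour of the MYC promoter, was scarce. It had 38, 38 and 42 counts in SiSFPQ and 28, 28 and 21 counts in SiCtrl, or 29.02, 23.67 and 27.15 CPM in SiSFPQ against 19.98, 19.02 and 15.71 CPM in SiCtrl. All SiSFPQ libraries were above all SiCtrl libraries, and the log2 fold change of 0.53 ± 0.22 (SE, 95% interval 0.10 to 0.96) was the largest increase among the members tested and the least certain. Its edgeR adjusted p = 0.034 did not hold when SiSFPQ replicate 1 (adjusted p = 0.099), SiSFPQ replicate 3 (0.082), SiCtrl replicate 2 (0.064) or SiCtrl replicate 3 (0.14) was left out. It was 0.11 with no filter on low counts, 0.055 with a looser filter (at least 1 CPM in 3 libraries) that left 11651 rows to adjust over, 0.033 with a stricter one (at least 10 CPM in 3 libraries) and 0.25 with DESeq2, within a range of 0.016 to 0.25 over the alternatives. The listed span of CASC11 runs 3587 bases into MYC as GENCODE 29 places it, although the CASC11 exons of that release stop short of MYC. The table's exons were not given, so MYC reads in this row cannot be told apart.

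PCAT1 (ENSG00000253438, 126556323 to 127419050, plus strand), first described as a prostate cancer transcript, fell. It had 18, 36 and 29 counts in SiSFPQ against 71, 55 and 56 counts in SiCtrl, although SiSFPQ replicates 2 and 3 had the largest totals. Levels were 13.7, 22.4 and 18.8 CPM in SiSFPQ and 50.7, 37.4 and 41.9 CPM in SiCtrl, so that the highest SiSFPQ library stayed well under the lowest SiCtrl library. The log2 fold change was -1.21 ± 0.19 (SE, 95% interval -1.60 to -0.83, edgeR adjusted p = 3.9e-09), and 3.04% of tested rows had a lower one. With each library left out in turn it ran from -1.39 to -1.06. PCAT1 spans 862728 bases and holds CASC19, PRNCR1 and CCAT2 within its listed span. In GENCODE 29 its exons share 1163 bases with the coding gene FAM84B on the other strand and 848 with POU5F1B on its own strand, but none with CASC19 or CASC8. Reads of FAM84B and POU5F1B could therefore be among its counts, and their part in the fall was not tested. The listed length of PCAT1, 22264 bases, exceeds its 16848 exonic bases in GENCODE 29. The table's exons were not given, so reads of CASC8 and CASC19 cannot be told apart either.

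CASC19 (ENSG00000254166, 127072694 to 127227541, minus strand), known from colorectal cancer, had 0, 1 and 0 counts in SiSFPQ and 1, 2 and 2 counts in SiCtrl. The ratio of its summed counts per table total, 1 against 5, came to 0.197, and its 95% counting interval ran from 0.00417 to 1.76, so no difference was detectable at this depth. Counting intervals here cover counting error only.

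**Figure D1:**
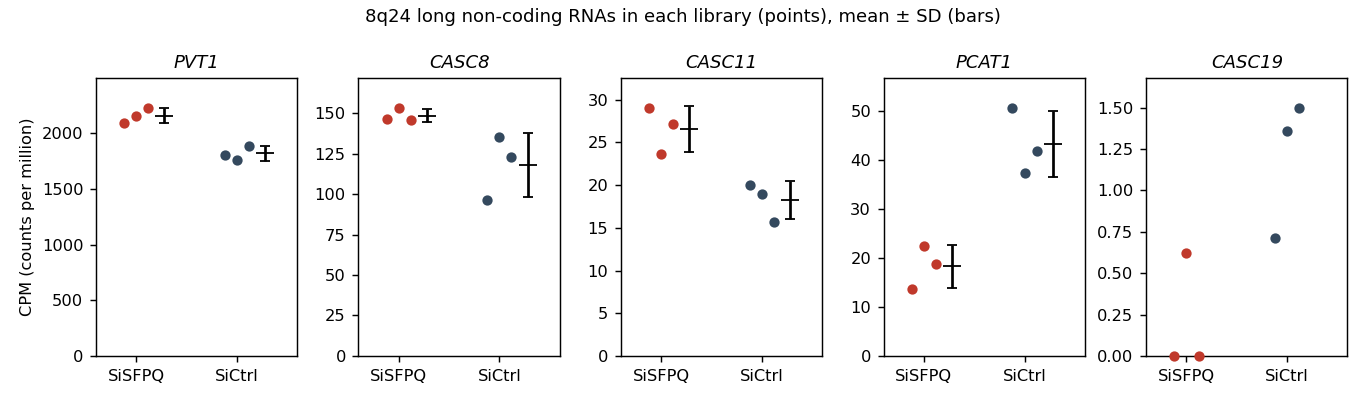
Level in CPM (vertical axes, each from 0) of the 5 members in every library, SiSFPQ on the left and SiCtrl on the right of each panel; points are libraries and bars the mean ± SD of 3 libraries, left out for CASC19, which had no count in 2 libraries. PVT1, CASC8 and CASC11 sit higher in SiSFPQ and PCAT1 sits lower, with no overlap between groups in these 4.

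All 4 members tested had groups that did not overlap in CPM, as did 54.0% of all tested rows. Levels between genes were compared per kilobase of listed length. For some genes that length exceeds the listed span, as for DANCR (10179 against 9359 bases), so it cannot be read as plain exonic length. In SiSFPQ and SiCtrl the order was the same: PVT1 at 58.0 and 48.9 CPM per kb, CASC8 at 40.4 and 32.1, CASC11 at 3.85 and 2.64, and PCAT1 at 0.822 and 1.95. CASC19 was last, at 0.00884 and 0.0507 CPM per kb. The listed length of PVT1, 37227 bases, far exceeds the 5493 bases of its exons in GENCODE 29, so its level per kilobase depends on the length used. The order above holds for the listed lengths only.

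**Figure D2:**
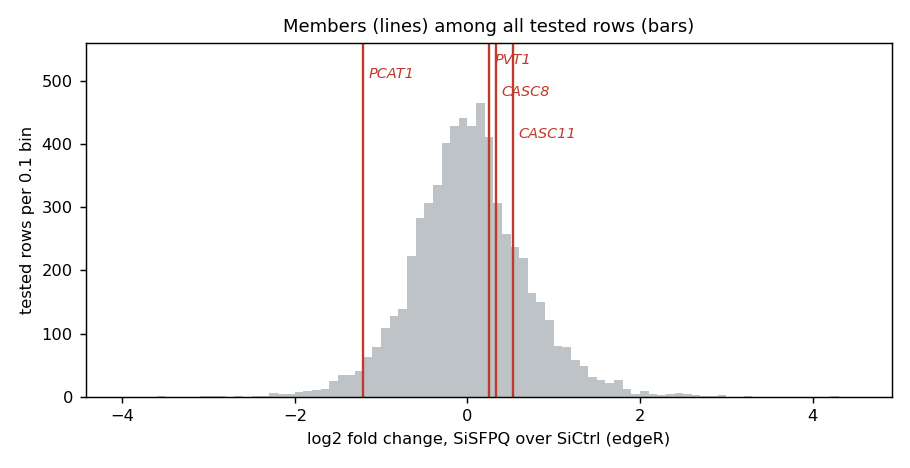
Number of tested rows (vertical axis) by log2 fold change of SiSFPQ over SiCtrl (horizontal axis), with the 4 tested members as red lines. PVT1, CASC8 and CASC11 stand in the upper shoulder of the distribution and PCAT1 in its lower tail, where 3.04% of rows lie further down.

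Whether the members changed to different degrees was asked by setting each against PVT1 in the same library, which removes the scaling of libraries. PVT1 took 91.5% to 92.1% of the members' summed counts in SiSFPQ and 90.1% to 91.5% in SiCtrl. PCAT1 took 0.603% to 0.951% in SiSFPQ and 1.91% to 2.57% in SiCtrl. The log2 ratio of PCAT1 to PVT1 was -7.21, -6.57 and -6.87 in SiSFPQ against -5.15, -5.55 and -5.48 in SiCtrl, with no overlap and a difference of -1.49 (exact permutation test, two-sided, p = 0.1, the smallest that 3 against 3 libraries allow). The ratio of CASC11 to PVT1 averaged -6.33 ± 0.17 in SiSFPQ and -6.62 ± 0.22 in SiCtrl, groups that overlapped (SD, n = 3 each; difference 0.29, exact permutation p = 0.2). Without SiCtrl replicate 3 that difference was 0.16. For CASC8 the means were -3.86 ± 0.06 in SiSFPQ and -3.95 ± 0.26 in SiCtrl (difference 0.10, exact permutation p = 0.7). The differences of CASC8 and CASC11 from PVT1 were thus within the spread of the libraries. These 3 ratios were the only ones tested, and none could reach 0.05.

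**Figure D3:**
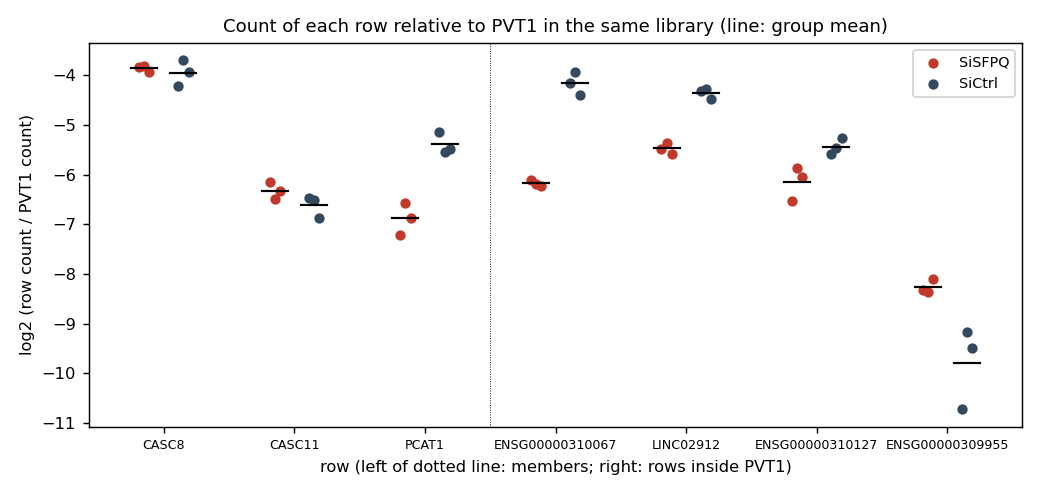
Log2 ratio of each row's count to the PVT1 count of the same library (vertical axis) for 3 members, left of the dotted line, and 4 rows inside the PVT1 span, right of it; points are libraries, SiSFPQ left of SiCtrl, and lines are group means. PCAT1 and the rows ENSG00000310067, LINC02912 and ENSG00000310127 were lower relative to PVT1 in every SiSFPQ library, CASC8 and CASC11 overlapped between groups, and ENSG00000309955 was higher.

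The neighbours were then taken by position, from 1 Mb before the first member to 1 Mb past the last. This window (chromosome 8, 125556323 to 129187101) held 38 other rows, of which 20 had any count and 4 were tested: 0 were called higher, 3 lower and 1 was not called. The count of 0 is that of edgeR. DESeq2 also gave 0, and as none of these 4 rows had a positive edgeR log2 fold change, 0 were higher at an unadjusted p under 0.05 too. Their median was -0.63, against 0.03 over the 235 tested rows of chromosome 8 outside the window, where 65 were called higher and 48 lower. Over all 6325 tested rows, 1547 were called higher and 1516 lower.

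The 3 rows that fell all lay inside PVT1. ENSG00000310067 (127988950 to 127997040, minus strand), whose function is not annotated in the files, had 39, 47 and 45 counts in SiSFPQ and 142, 169 and 119 counts in SiCtrl. At 29.8, 29.3 and 29.1 CPM the SiSFPQ libraries were nearly equal and far below the SiCtrl libraries at 101.3, 114.8 and 89.0 CPM. Its log2 fold change of -1.79 ± 0.14 (SE, edgeR adjusted p = 8.9e-36) was lower than that of any member. Only 0.648% of tested rows had a lower one.

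LINC02912 (ENSG00000280055, 127946559 to 127948723, minus strand), a single-block row named TMEM75 in GENCODE 29, lay in an intron of PVT1 in that release. It had 46.6, 52.3 and 45.9 CPM in SiSFPQ against 89.2, 89.7 and 83.8 CPM in SiCtrl, again with no overlap, and a log2 fold change of -0.86 ± 0.13 (SE, edgeR adjusted p = 3.7e-10). ENSG00000310127 (128156750 to 128156921), a row of 172 bases on the strand of PVT1, had 22.1, 36.7 and 33.6 CPM in SiSFPQ and 37.1, 39.4 and 48.6 CPM in SiCtrl. Its libraries nearly met between groups, and its log2 fold change was -0.41 ± 0.17 (SE, edgeR adjusted p = 0.040). The call, though not the direction, was lost with plain library totals (adjusted p = 0.088), with no filter, with the filter of 1 CPM, with DESeq2 and without SiCtrl replicate 3 (0.21). Without SiSFPQ replicate 1 the log2 fold change shrank to -0.24 (adjusted p = 0.30), and adjusted p over the alternatives ran from 0.019 to 0.30.

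Relative to PVT1 in the same library, ENSG00000310067 differed by -2.02 on the log2 scale and LINC02912 by -1.10, values for rows picked after they were seen and given with no test. PVT1 and these rows thus moved apart although they occupy the same stretch of chromosome. The counting did not separate strands: MALAT1 and its antisense gene TALAM1 held 72563 and 72552 counts in all. The rows on the minus strand can therefore hold reads of PVT1 RNA, as can ENSG00000310127 on the strand of PVT1. The span of ENSG00000310067 holds 220 bases of PVT1 exons in GENCODE 29, so such reads could come from spliced or unspliced PVT1. Their share was not measured.

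Of the 6 rows inside PVT1, ENSG00000309955, ENSG00000309986 and ENSG00000310100 had too few counts for the filter. ENSG00000309986 had 1, 2 and 0 counts in SiSFPQ and 0 in every SiCtrl library, and ENSG00000310100 had 0 in all libraries. ENSG00000309955 (128148990 to 128168626, minus strand) had 8, 10 and 12 counts in SiSFPQ against 1, 4 and 3 in SiCtrl, 3.70 times as many per table total (95% counting interval 1.66 to 9.33). It was called higher only when the filter was relaxed (log2 fold change 1.77, edgeR adjusted p = 0.010 with no filter and 0.0040 with that of at least 1 CPM in 3 libraries).

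Farther upstream, PRNCR1 (ENSG00000282961, 127079874 to 127092600, plus strand), a prostate cancer region RNA inside PCAT1 and CASC19, had 36, 62 and 77 counts in SiSFPQ and 63, 68 and 72 in SiCtrl. At 27.5, 38.6 and 49.8 CPM in SiSFPQ against 45.0, 46.2 and 53.9 CPM in SiCtrl the groups overlapped. It was not called, with a log2 fold change of -0.30 (95% interval -0.61 to 0.01, edgeR adjusted p = 0.11), and the value moved with single libraries, to -0.13 without SiSFPQ replicate 1 (adjusted p = 0.57) and to -0.52 without SiSFPQ replicate 3 (adjusted p = 0.014). LINC00861 had 16 counts over the SiSFPQ libraries and 26 over the SiCtrl libraries and was not tested. CCAT2, a colorectal cancer RNA of the same region, had 0 counts in all libraries. Taking 3 counts as the limit, this allows up to 0.675 CPM over the SiSFPQ libraries and 0.685 CPM over the SiCtrl libraries. These limits use totals over all rows without TMM scaling, unlike the other CPM values. CCDC26, with 19 counts in SiSFPQ and 12 in SiCtrl, and LINC00824 were too scarce to test.

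**Figure D4:**
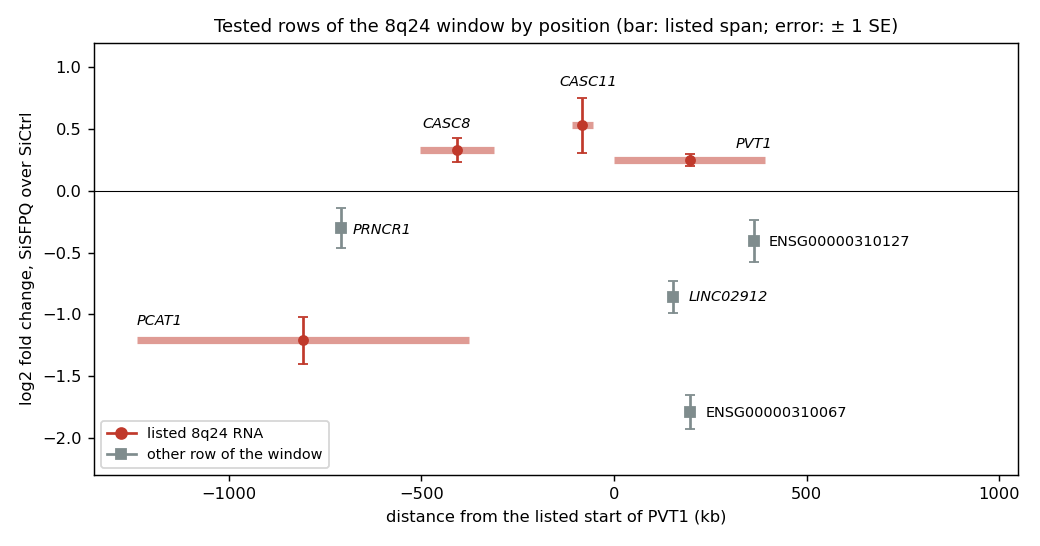
Log2 fold change of SiSFPQ over SiCtrl (vertical axis, error bars ± 1 SE) of the 8 tested rows of the 8q24 window against distance from the listed start of PVT1 in kb (horizontal axis); thick bars are listed spans, red for members and grey for other rows. PVT1, CASC8 and CASC11 lie above 0, and PCAT1, PRNCR1 and the rows inside PVT1 lie below it.

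To set the 8q24 RNAs beside other non-coding genes tied to MYC or its relative MYCN, a list of 11 genes elsewhere was used. Of these, 6 were tested, 4 rose and 2 fell, so that all 6 were called, where 48.4% of all tested rows were. The list was made with earlier results of these data known, so this share is a description only. MINCR, named as a MYC-induced RNA and itself on chromosome 8 outside the window (143280147 to 143281687), had 49.6, 49.8 and 42.7 CPM in SiSFPQ against 22.8, 17.7 and 23.2 CPM in SiCtrl (log2 fold change 1.16 ± 0.19, SE, edgeR adjusted p = 3.7e-09). Its SiSFPQ libraries all stood well above its SiCtrl libraries. The snoRNA host SNHG15 averaged 186 ± 12.4 CPM in SiSFPQ and 100.5 ± 8.30 CPM in SiCtrl (SD, n = 3 each), a log2 fold change of 0.88. GAS5, a snoRNA host linked to growth arrest, and DANCR, an RNA that restrains differentiation, rose by 0.52 and 0.93 on the log2 scale.

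H19, an imprinted RNA of fetal growth reported as a MYC target, had 46.6, 51.7 and 31.0 CPM in SiSFPQ against 156.3, 132.5 and 160.1 CPM in SiCtrl. Its SiSFPQ libraries all stood far below its SiCtrl libraries, and its log2 fold change was -1.79 ± 0.12 (SE, edgeR adjusted p = 1.4e-49). EPIC1, reported to bind the MYC protein, averaged 60.4 ± 7.51 CPM in SiSFPQ and 94.8 ± 7.70 CPM in SiCtrl (SD, n = 3 each; log2 fold change -0.66, edgeR adjusted p = 2.8e-07). MIR17HG, the host of a microRNA cluster that MYC activates, had 2, 5 and 6 counts in SiSFPQ and 7, 7 and 3 in SiCtrl and was too scarce to test, as were MYCNOS and MYCNUT beside MYCN. PCGEM1 and LINC-ROR had no count. PVT1, at 0.25, rose by less than any of the 4 genes of this list that rose, in fitted log2 fold change.

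**Figure D5:**
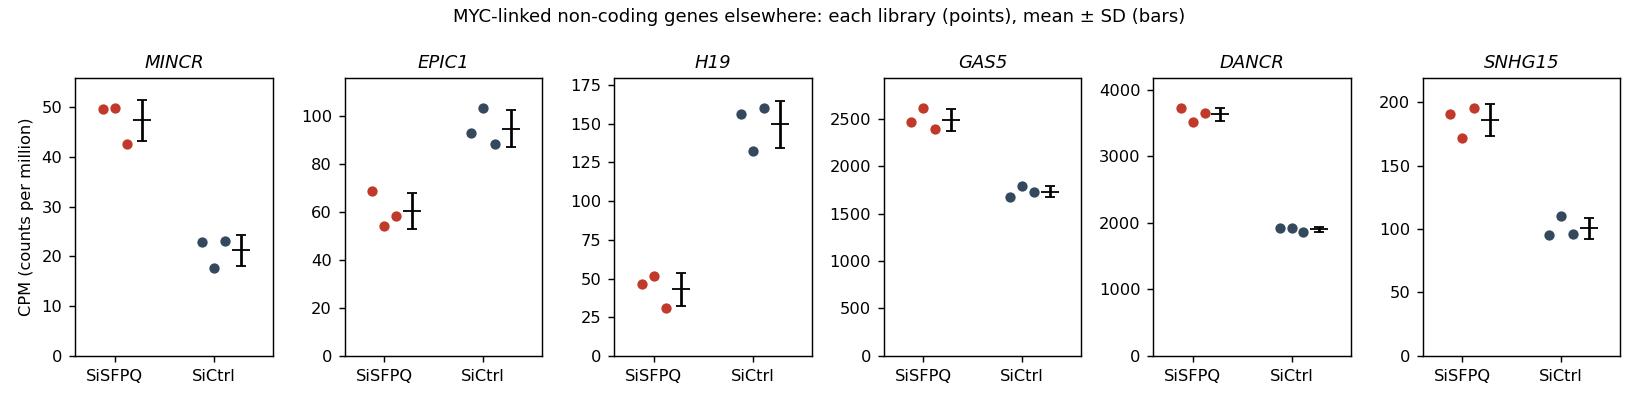
Level in CPM (vertical axes, each from 0) of the 6 tested MYC-linked non-coding genes outside the 8q24 window in every library, SiSFPQ on the left and SiCtrl on the right of each panel; points are libraries and bars the mean ± SD of 3 libraries. MINCR, GAS5, DANCR and SNHG15 were higher in every SiSFPQ library, and EPIC1 and H19 lower.

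The rows whose log2 CPM most resembled that of PVT1 over the 6 libraries, among 6312 rows outside the window with a mean of at least 5 CPM, were LINC00702 (Pearson's r 0.999), ENSG00000228061 (0.997), ENSG00000302612 (0.995), ENSG00000310217 (0.994) and ST20-AS1 (0.994). All 5 were higher in SiSFPQ, with log2 fold changes of 0.51 to 1.29 and so larger than that of PVT1. With 6 libraries in 2 groups, such a correlation mostly records the difference between the groups and is given as a description.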

How the data were processed

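The authors deposited raw counts of reads per gene with listed coordinates and lengths, per the file headers. How the listed length was computed is not given. Poly(A)-selected, stranded libraries were made from TRIzol-extracted total RNA, per the labels' protocols. No aligner, counter, annotation or build is given in the sources used here. Among the 43 rows of the window, 18 have an identifier in GENCODE 29 (GRCh38) and 6 of those an identical span, so coordinates are given as listed and read as GRCh38.

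Counts were fitted with edgeR 4.0.16 in R 4.3.3 over the whole table: filterByExpr (6325 of 35036 rows, the rest holding 1.76% of counts), TMM, robust quasi-likelihood fits with 1 term, the group, and two-sided tests. SE is the log2 fold change over the root of F. Intervals are at 95%. Ratios to PVT1 used a pseudocount of 0.5 and exact permutation tests (scipy). The fit was tested on simulated data.

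Alternatives were RLE, upper-quartile and plain scaling, no filter, DESeq2 1.42.0, a filter of 1 CPM or more in 3 libraries (planned as a stricter one, but looser here than filterByExpr, whose minimum count is 10), limma-voom (limma 3.58.1), fits with each library left out and a replicate block. DESeq2 on the filtered rows and a filter of 10 CPM or more in 3 libraries were added after the data were examined. Libraries of 1 group differed by more than sampling noise (chi-square per degree of freedom 1.19 to 1.33), so none was a copy of another; separate preparations of 1 culture would differ as well.

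Members and lists were chosen with earlier results of these data known. Named were the members, the called rows of the window, the 3 uncalled rows there with the most counts, the tested MYC-linked genes and the 5 rows most like PVT1; other rows are named after their values were seen. No sequences of the locus are shown.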

Additional observations from a re-analysis of the deposited data

How the results depend on the processing

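PVT1 kept its direction and call under every alternative run, with log2 fold changes of 0.21 to 0.31, as did PCAT1, at -1.39 to -1.06. CASC8 ranged from 0.20 to 0.43 with each library left out and was not called at 0.33 with DESeq2. CASC11 ranged from 0.42 to 0.61 with each library left out and was not called at 0.52 with no filter, at 0.53 with the filter of 1 CPM, which keeps more rows than the main one, at 0.54 with DESeq2 or at 0.53 with DESeq2 on the filtered rows. Members called higher thus numbered 1 with DESeq2, and 2 to 3 with a library left out. The ratio of CASC8 to PVT1 ran from -0.04 to 0.23 with a library left out and turned at -0.04 without SiCtrl replicate 1, and that of CASC11 ran from 0.16 to 0.37. Of the other window rows, 1 was called higher with no filter and 1 with the filter of 1 CPM, in both ENSG00000309955, which the main filter leaves out. Over the table, 1547 rows were higher and 1516 lower; DESeq2 gave 858 and 904, and on the filtered rows 1013 and 1074. The causes were not tested. Calls of the 6 tested MYC-linked genes elsewhere held under every alternative run. The other named genes gave 160 values under alternatives. Direction and call held in 152 of them, 7 were no longer called, all for ENSG00000310127, 1 became called (PRNCR1) and 0 turned sign. No pairing of the libraries by replicate number was seen (correlations of deviations -0.00472, 0.000965 and 0.0104), which does not show that there was none. The replicate block, with 1535 rows higher and 1515 lower, changed no call of the members. Plain library totals moved the median log2 fold change of all tested rows to 0.072. Low counts limit CASC19 and CASC11 most.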
